A study of Mus musculus with 8 samples.

Results

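A group of 7 genes of ADP-ribosylation linked to interferon or to DNA repair was examined in the mouse heart: Parp1, Parp3, Parp9, Parp10, Parp12, Parp14 and Dtx3l. They were taken by name. Of these 7 members, 4 had probes that matched by RefSeq accession, with 7 probes in all, and all 4 were among the 8871 named genes tested. Parp10, Parp14 and Dtx3l were not analysed here, because no probe was matched to them. The arrays compared female C57BL/6 mice, an inbred strain, aged 12 weeks. In 1 group 4 mice had received lipopolysaccharide (LPS, a component of the Gram-negative bacterial wall) at 5 mg/kg into the peritoneum, and in the other 4 mice had received saline. Hearts were taken 8 h after injection in both groups, after perfusion with PBS, and each mouse gave RNA for 1 long-oligonucleotide array read in 1 colour. A piece of heart holds muscle, vessel, stromal and blood cells, so fewer cells of a type and less RNA per cell cannot be told apart in these values.

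PARP enzymes use NAD to attach ADP-ribose to proteins. PARP1 and PARP3 answer DNA strand breaks, whereas PARP9, PARP10, PARP12 and PARP14 belong to the members known as interferon-stimulated genes. PARP9 carries macrodomains that bind ADP-ribose and pairs with the ubiquitin ligase DTX3L, and in human cells this pair has been tied to interferon signalling. In mice Parp14 was described as a coactivator of Stat6.

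Between 37.3% and 46.9% of gene probes lay above background on an array, where background is the 95th percentile of 94 negative-control spots. The median signal over local background ran from 12 to 32 intensity units. Correlations between arrays over the tested probes ran from 0.894 to 0.986. All 6 cardiomyocyte markers (Myh6, Actc1, Tnnt2, Tnni3, Myl2 and Pln) were above background on all 8 arrays. Of 10 neutrophil markers 9 had a probe and 4 were tested. All 4 rose with LPS, S100a8 by 3.12 and S100a9 by 1.85 on the log2 scale. Csf3r passed the filter of 4 arrays above background through the LPS arrays alone (0 with saline), so its rise adds no weight. S100a9 was above background on 2 saline arrays. Of the others, 4 (Cxcr2, Mmp8, Ngp and Elane) were above background on 0 of 8 arrays. The summed level of the 4 tested neutrophil markers (log2) was 8.18 to 9.54 with saline and 10.72 to 11.17 with LPS. Of 7 tested macrophage and monocyte markers 3 fell (Lyz2, C1qa and C1qc) and 0 rose, with 0 higher also at an unadjusted p under 0.05 in limma. Of 7 endothelial markers 2 fell, with changes of -2.13 for Egfl7 and -1.82 for Tek, and the median was -0.49. Of 5 fibroblast markers Lum and Col1a1 fell, Col1a1 with a change of -0.92, and Dcn rose by 0.48. None of the cardiomyocyte markers was called (median -0.56). Over all tested named genes 9.74% were called higher and 9.75% lower. The part of these cells in the changes below was not tested.

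Of the 4 tested members, 2 rose with LPS and 0 fell. Parp9 was 7.21-fold and Parp12 3.63-fold higher, and neither Parp1 nor Parp3 passed the test. Across all tested named genes 9.74% were called higher (864 of 8871) and 9.75% lower, at an adjusted p under 0.05 (limma's moderated test, Benjamini-Hochberg). At an unadjusted p under 0.05 in limma the count of lower members was also 0, against 1673 of the 8871 tested genes. With 4 members a count of 0 says little. A change as large as that of Parp12 was seen in 1.84% of tested genes (163), and as large as that of Parp9 in 0.778% (69). Over all tested genes the median log2 change was -0.05.

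Parp9 was read by the probe mMR027974. Its normalized log2 intensity was 7.63, 8.69, 7.71 and 8.31 in the hearts of saline mice 1 to 4, and 11.41, 11.96, 9.58 and 10.80 in those of LPS mice 1 to 4. Every LPS array lay above every saline array, which held in 1 direction or the other for 23.5% of all tested genes, and LPS 3 stood lowest of the LPS arrays. The group means were 10.94 ± 1.02 (SD, n = 4) with LPS and 8.09 ± 0.51 (SD, n = 4) with saline. The change was 2.85 on the log2 scale (SE 0.45, 95% interval 1.85 to 3.85, limma adjusted p = 0.00226). The two-sided exact permutation test over the 8 arrays gave p = 0.0286, the smallest that 4 against 4 arrays allow.

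Before normalization the groups were also apart for this probe. The spot minus its local background read 312, 424, 126 and 262 units with saline and 3132, 3134, 579 and 1073 units with LPS, in the same order. The lowest LPS value exceeded the highest saline value. A second Parp9 probe, mMC008319, was above background on LPS 1 alone, at 63 intensity units, and lay between -1 and 14 on the other 7 arrays. It did not pass the filter of 4 arrays above background and was not tested, so the Parp9 result rests on 1 probe.

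Parp12, whose product carries zinc fingers and a WWE domain beside its catalytic domain, was read by 2 probes. The brighter, mMC016180, had log2 intensities of 8.51, 8.26, 8.58 and 8.12 with saline and 10.33, 10.89, 9.59 and 10.11 with LPS. The groups did not overlap, and LPS 3 was again the lowest LPS array. The means were 10.23 ± 0.54 with LPS and 8.37 ± 0.22 with saline (SD, n = 4 each), a change of 1.86 (SE 0.24, 95% interval 1.32 to 2.40, limma adjusted p = 0.000744).

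The second Parp12 probe, mMR030989, had log2 intensities of 8.40, 8.31, 7.83 and 8.37 with LPS and 7.10, 6.62, 6.92 and 6.70 with saline. It rose by 1.39 (SE 0.16, limma adjusted p = 0.000475) in a fit that kept every probe as its own row, where 8.59% of 14914 probes were called higher. Both Parp12 probes therefore moved in the same direction, by 1.86 and 1.39. Before normalization the brighter Parp12 probe did overlap between groups. Its signal over background was 1384, 1450, 581 and 627 units with LPS and 700, 290, 270 and 223 units with saline. The high saline value belonged to saline 1, the array with the highest median signal over background (32 units, against 12 to 19 on the others), so the separation for Parp12 was seen on the normalized scale.

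**Figure D1:**
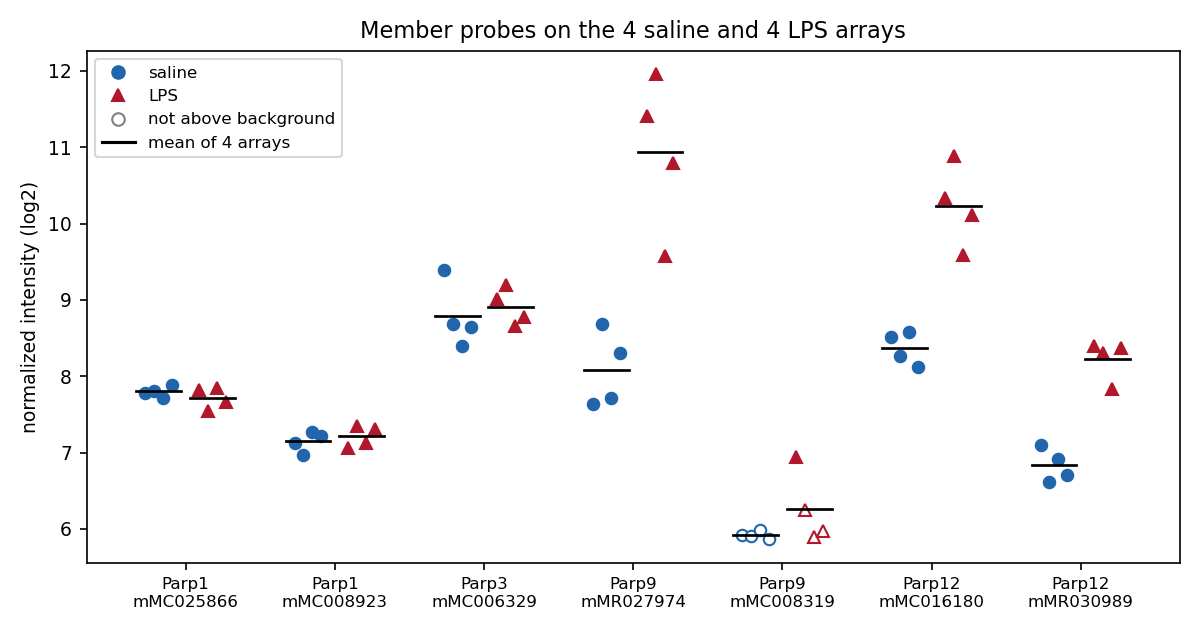
Normalized log2 intensity (y axis) of the 7 member probes (x axis) on the 4 saline arrays (blue circles) and 4 LPS arrays (red triangles), with bars at the group means and open symbols where the spot was not above background. The tested Parp9 probe and both Parp12 probes separate the groups, the Parp1 and Parp3 probes overlap, and the second Parp9 probe is above background on 1 array.

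Parp3, a nuclear enzyme of DNA strand break repair, had log2 intensities of 9.39, 8.69, 8.40 and 8.65 with saline and 9.01, 9.19, 8.66 and 8.78 with LPS. The groups overlapped, and saline 1 was the highest of all 8 arrays. The change was 0.13 (SE 0.21, 95% interval -0.34 to 0.60, limma adjusted p = 0.708). This interval allows a rise of 0.60 or a fall of 0.34. The call depended on how a spot was summarised, since the mean in place of the median brightness of its pixels gave 0.59 (SE 0.15, limma adjusted p = 0.0172). Scaling each array by its median over all gene probes turned the direction, to -0.30 (limma adjusted p = 0.578).

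Parp1, the founding member and the main poly(ADP-ribose) polymerase of the nucleus, was read by 2 probes. The brighter, mMC025866, gave 7.82, 7.55, 7.84 and 7.66 with LPS and 7.78, 7.81, 7.72 and 7.89 with saline. The groups overlapped, and the change was -0.08 (SE 0.11, 95% interval -0.34 to 0.17, limma adjusted p = 0.651). The second probe, mMC008923, gave 7.06, 7.35, 7.13 and 7.31 with LPS and 7.13, 6.97, 7.27 and 7.21 with saline. Its change was 0.07 (SE 0.12, 95% interval -0.20 to 0.34, limma adjusted p = 0.720). The value of the brighter probe moved with the processing without being called. It was -0.42 (SE 0.20, limma adjusted p = 0.16) under median scaling over all gene probes, which moved the median of all tested genes from -0.05 to -0.35. With mean spot brightness it was -0.28 (SE 0.10, limma adjusted p = 0.0615).

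Promoter windows of the RefSeq table for GRCm38.p6 were found for 4 members (Parp1, Parp3, Parp12 and Dtx3l). They run from 250 bases before to 50 after the annotated start and were searched on both strands for the interferon-stimulated response element (ISRE, searched as GAAA, any 2 bases, GAAA), the gamma-activated site (GAS, TTCNNNGAA) and the NF-kB consensus. These motifs occur in 3.44%, 8.3% and 8.46% of the 32851 windows, and neither of the first 2 contains the other. The windows of Parp12, which rose, and of Dtx3l, the partner of Parp9, are shown with those of Stat2 and Isg15, genes that rose as well and were picked because their windows hold the motif. Capitals mark ISRE letters.
Parp12: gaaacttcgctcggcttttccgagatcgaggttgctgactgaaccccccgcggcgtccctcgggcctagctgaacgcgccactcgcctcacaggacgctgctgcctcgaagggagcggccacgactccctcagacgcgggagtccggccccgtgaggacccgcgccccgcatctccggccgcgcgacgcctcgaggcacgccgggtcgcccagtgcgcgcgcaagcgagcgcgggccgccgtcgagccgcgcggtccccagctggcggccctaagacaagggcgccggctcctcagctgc
Dtx3l: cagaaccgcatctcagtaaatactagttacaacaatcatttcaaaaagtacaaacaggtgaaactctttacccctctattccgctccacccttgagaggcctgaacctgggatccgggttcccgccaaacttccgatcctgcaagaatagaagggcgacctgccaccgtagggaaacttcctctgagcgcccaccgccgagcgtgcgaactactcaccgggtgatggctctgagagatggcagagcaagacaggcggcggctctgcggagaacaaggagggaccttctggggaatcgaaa
Stat2: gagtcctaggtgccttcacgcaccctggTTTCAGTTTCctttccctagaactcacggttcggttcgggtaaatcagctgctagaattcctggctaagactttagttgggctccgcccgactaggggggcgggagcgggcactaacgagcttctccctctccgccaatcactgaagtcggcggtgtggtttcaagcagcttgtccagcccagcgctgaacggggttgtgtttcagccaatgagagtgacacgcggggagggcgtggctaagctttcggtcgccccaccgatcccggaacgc
Isg15: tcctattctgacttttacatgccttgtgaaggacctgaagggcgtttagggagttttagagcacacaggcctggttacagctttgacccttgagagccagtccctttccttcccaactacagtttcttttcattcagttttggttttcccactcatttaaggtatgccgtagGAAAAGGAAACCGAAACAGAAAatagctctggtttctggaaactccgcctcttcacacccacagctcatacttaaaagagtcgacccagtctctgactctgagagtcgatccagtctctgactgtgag
None of the 4 member windows held any of the 3 motifs, which says only that these letters are absent from these windows. The Stat2 window held 1 ISRE, which starts at base 29 counted from the window's first base. The Isg15 window held 3 overlapping ISRE matches, at bases 173, 179 and 185. The windows of Irf1, Irf7, Irf9 and Zc3hav1, which also rose, held 0 ISRE matches, so the motif was missing from some called genes outside the members too. Of the 2 Irf1 windows 1 held a GAS and 1 an NF-kB match, and the Zc3hav1 window held 1 NF-kB match. Socs1 and Snx10, which rose as well, did hold the ISRE, Socs1 at bases 168 and 174 and Snx10 in 1 of its 3 windows. The windows, printed 5′ to 3′ along the gene, lie at chr6:39118300-39118599 on the minus strand for Parp12, chr16:35938978-35939277 on the minus strand for Dtx3l, chr10:128270248-128270547 on the plus strand for Stat2 and chr4:156200769-156201068 on the minus strand for Isg15. The GC content was 73.7% in the Parp12 window, 62% in that of Parp1, 57.7% in that of Parp3 and 54.3% in that of Dtx3l, against a median of 52.7% over all windows.

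The members' changes were set against each other within arrays, in 6 pairs of tested members with exact two-sided permutation tests over the 8 arrays. The intervals are t intervals from the pooled variance of the 2 groups and do not come from the permutation tests. Parp9 changed more than Parp1 by 2.93 (95% interval 1.45 to 4.42) and more than Parp3 by 2.72 (1.37 to 4.07). Parp12 changed more than Parp1 by 1.94 (1.07 to 2.81) and more than Parp3 by 1.73 (1.07 to 2.39). These 4 differences each had an exact adjusted p = 0.0429, from the smallest p the design allows. Parp9 exceeded Parp12 by 0.99 (95% interval -0.06 to 2.05, exact adjusted p = 0.103), and Parp1 differed from Parp3 by -0.21 (95% interval -0.88 to 0.46, exact adjusted p = 0.457). Neither of these last 2 differences passed the test, and the intervals leave room for sizeable ones.

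The other PARP family genes were read from a list of 10, of which 6 had a probe and 5 were tested. Zc3hav1, which encodes the zinc-finger antiviral protein PARP13, rose. Its log2 intensity was 9.38, 8.65, 7.67 and 8.54 with LPS and 6.96, 7.05, 6.80 and 6.74 with saline, without overlap, a change of 1.67 (SE 0.29, limma adjusted p = 0.00388). Its second probe was above background on 0 arrays. Parp11, a mono-ADP-ribosyltransferase, had a change of 0.46 (limma adjusted p = 0.0518), with no overlap between groups. Thus 1 of the 5 was called, against 2 of the 5 under several alternatives. Among these were leaving out LPS 1 or saline 3, an offset of 16, no background correction and cyclic loess. Parp2, the closest relative of Parp1, had a change of -0.03, Parp16 of -0.11 and Tnks, which encodes tankyrase, of 0.02. Tiparp, a target of the aryl hydrocarbon receptor, was above background on 2 arrays and was not tested. The median of the 5 was 0.02, against -0.05 for all tested genes.

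The enzymes that remove ADP-ribose or cleave its free form showed no called change. Of 9 tested genes 0 rose and 0 fell in limma, while at an unadjusted p under 0.05 none was higher and 2 were lower (Nudt5 and Nudt9). Parg, the glycohydrolase that degrades poly(ADP-ribose) chains, had a change of 0.11 (SE 0.11, limma adjusted p = 0.536). Nudt5, an ADP-ribose pyrophosphatase, had the smallest p, with a change of -0.39 (SE 0.14, limma adjusted p = 0.0722), and was not called. It was called lower without saline 3 (-0.47, adjusted p = 0.045), with array weights (-0.46, 0.0334), with mean spot brightness (-0.37, 0.0429) and within the 4 arrays marked redip in their file names (-0.64, 0.0499). With 1 probe per gene the median of the list was -0.14 and its range -0.39 to 0.52. The upper end is the brighter probe of Adprhl1, whose second probe went the other way, at -0.89 (limma adjusted p = 0.0705), and neither was called.

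Among the other Deltex ligases, the family of Dtx3l, 3 of 4 were tested. Dtx2 rose by 0.44 (SE 0.14), at the threshold with a limma adjusted p = 0.0494. Leaving out any LPS array ended that call (adjusted p 0.0531 to 0.132), as did most other alternatives. Dtx3 had a change of -0.46 (limma adjusted p = 0.122) and Dtx4 of -0.17 (limma adjusted p = 0.445), and Dtx1 was above background on 0 arrays.

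Interferon signalling was read from a list of receptors, JAK kinases, STAT and IRF factors and their feedback inhibitors. Of 20 tested genes 10 rose and 1 fell, with a median of 0.68. Over all tested genes 9.74% rose and 9.75% fell. Stat2, a subunit of the ISGF3 complex that forms in response to type I interferon, had log2 intensities of 10.19, 10.39, 9.02 and 10.08 with LPS and 7.62, 7.61, 7.70 and 7.35 with saline. The groups did not overlap, and its change was 2.35 (SE 0.26, limma adjusted p = 0.000312). Irf9, the DNA-binding subunit of the same complex, rose by 1.77 (SE 0.19, limma adjusted p = 0.000245).

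Irf1 rose by 3.30 (SE 0.48) and Irf7 by 2.26 (SE 0.27). Socs1, an inhibitor of JAK kinases, rose by 4.21 (SE 0.62) by its brighter probe, the largest value of the list, and by 2.14 (limma adjusted p = 0.0169) by its second. Usp18, which removes ISG15 and dampens the type I receptor, rose by 2.27. Irf8, Stat3, Ifngr1 and Jak2 rose by 2.06, 1.68, 1.05 and 0.89. Tyk2, the kinase bound to the type I receptor, fell by 0.53 (limma adjusted p = 0.0334), a call that was lost without LPS 1, 2 or 4 or without saline 1, 2 or 3 (adjusted p up to 0.0912), and with scan day (0.0583) or slide series (0.0538) as a block. The receptor chains Ifnar2 and Ifngr2 had changes of 0.45 and -0.03 and were not called, and Ifnar1 was above background on 1 array.

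**Figure D2:**
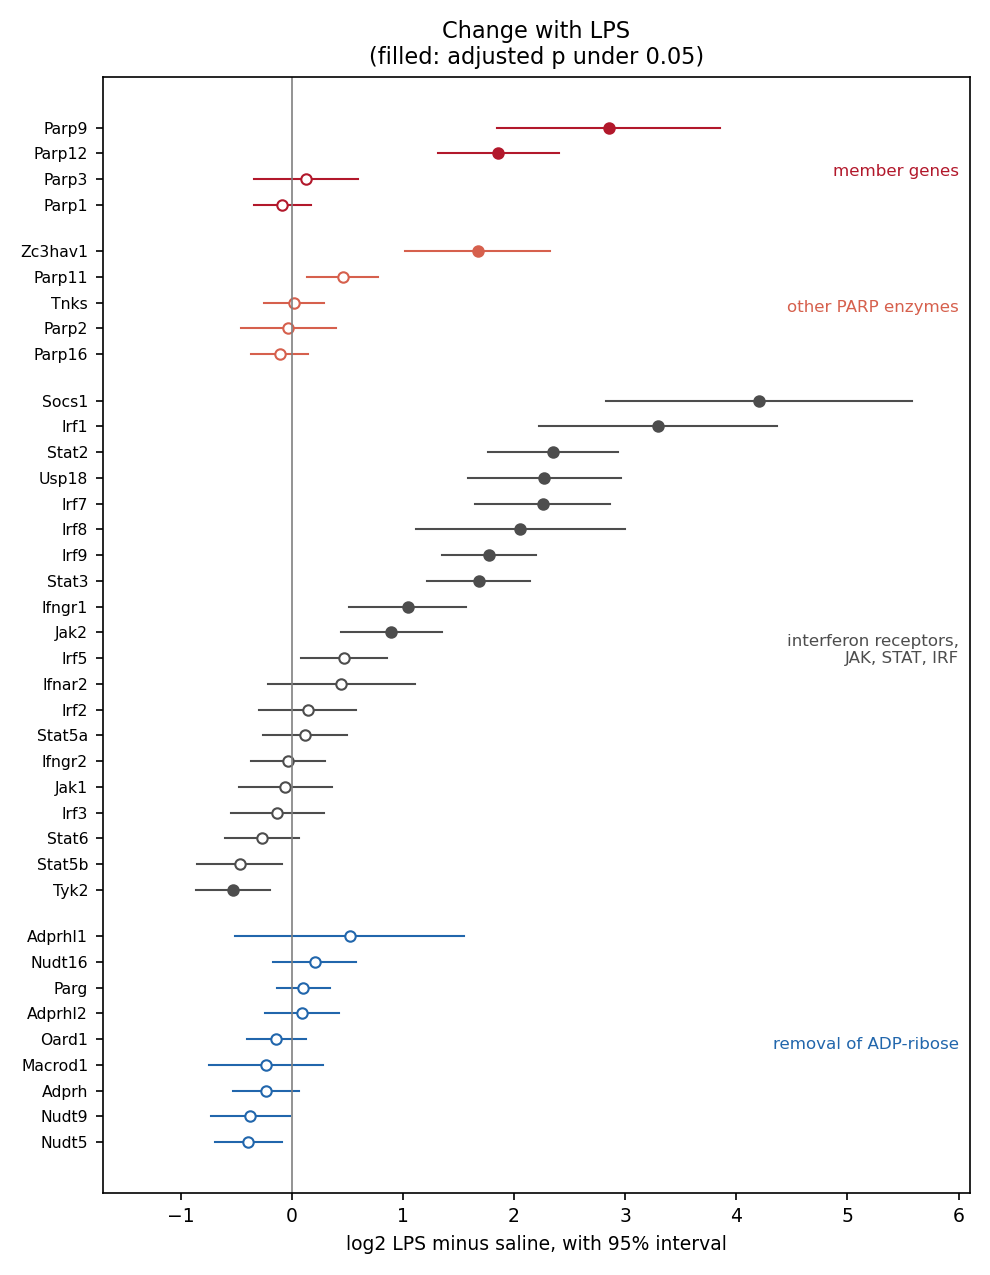
Log2 LPS minus saline (x axis) with 95% intervals for the tested members, other PARP family genes, interferon signalling genes and ADP-ribose removing enzymes. Symbols are filled where the limma adjusted p was under 0.05. Parp9 (2.85) and Parp12 (1.86) lie between the called Stat3 (1.68) and Irf1 (3.30), Zc3hav1 (1.67) lies just below Stat3, and the ADP-ribose removing enzymes lie between -0.39 and 0.52 with 0 called.

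Genes named in earlier work as partners of PARP9, DTX3L or PARP14 were counted separately. Of 10 tested 5 rose and 0 fell, against 9.74% and 9.75% of all tested genes. At an unadjusted p under 0.05 in limma 0 were lower as well, and the median was 0.77. Usp18 stands in the interferon list too. Isg15, the ubiquitin-like modifier, rose from 7.17 ± 0.21 to 10.49 ± 0.85 (SD, n = 4 each), a change of 3.31 (SE 0.35, limma adjusted p = 0.00024). Zfp36, which encodes the mRNA-destabilising protein tristetraprolin, rose by 3.47 (SE 0.31), Lgals3bp by 2.57 and Ube2l6, the E2 enzyme of ISG15 transfer, by 1.09. Stat6, the factor that Parp14 assists in mice, had a change of -0.27 (SE 0.15, limma adjusted p = 0.247) and was not called.

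The enzymes that make or use NAD, the substrate of all PARP reactions, split in direction. Of 13 tested genes 2 rose and 3 fell, against 9.74% and 9.75% of all tested genes, with a median of -0.13. Ido1, the first enzyme of the kynurenine route from tryptophan, was above background on 4 LPS arrays and 0 saline arrays, and was at least 6.92-fold higher with LPS (limma adjusted p = 0.00144). For that bound each dim array was raised to the dimmest level, after normalization, that any probe above background had on it. Ido1 passed the filter of 4 arrays above background through the LPS arrays alone, so its rise adds no weight. Nadk, which phosphorylates NAD to NADP, rose by 1.01 (SE 0.19, limma adjusted p = 0.00528), and was at 0.58 and not called under median scaling over all gene probes (adjusted p = 0.109).

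The mitochondrial sirtuins Sirt3 and Sirt5 fell by 0.74 (limma adjusted p = 0.031) and 0.67 (limma adjusted p = 0.0162). Nmrk1, a nicotinamide riboside kinase, fell by 0.50 (limma adjusted p = 0.0365) and was above background on 2 of the LPS arrays. The Sirt3 call was lost without LPS 1, 2 or 4 or without saline 1, 2 or 4 (adjusted p 0.0528 to 0.0871), and the Sirt5 call without saline 2 (0.051). With the slide series as a block neither was called (0.304 and 0.267), and their second probes, at -0.31 and -0.67, were not called either (0.0822 and 0.0838). Nampt, the rate-limiting enzyme of NAD salvage, had a change of 0.29 (SE 0.17, limma adjusted p = 0.275) and was not called, but was called higher with mean spot brightness (0.65, adjusted p = 0.0239).

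For the repair partners of PARP1 and PARP3, 17 genes were tested, of which 4 rose and 0 fell. Over all tested genes the shares were 9.74% and 9.75%. In the list 1 gene was lower at an unadjusted p under 0.05 in limma. The 4 that rose were Fen1, the flap endonuclease, at 1.86 (SE 0.35, limma adjusted p = 0.00591), Timeless at 1.00, Apex1, the abasic site endonuclease, at 0.88, and Macroh2a1, a histone variant whose macrodomain binds ADP-ribose, at 0.76. The Timeless call was lost without LPS 4 (adjusted p 0.0515), saline 1 (0.0535) or saline 4 (0.0504), and under median scaling over all gene probes (0.72, 0.111). Xrcc1, the scaffold that PARP1 recruits, had a change of -0.20 (limma adjusted p = 0.393), and Lig3 and Polb had changes of -0.12 and 0.11. The median of the list was -0.08.

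Within the LPS group the members that rose were lowest on the same array. LPS 3 was the lowest of the 4 LPS arrays for Parp9 and Parp12, for Zc3hav1 and for 9 of the 10 called interferon signalling genes. It was also the lowest for 63.4% of all genes called higher (547 of the 863 measured on every array). Relative to the saline mean, Parp9 stood at 3.32, 3.88, 1.49 and 2.71 in LPS mice 1 to 4, and Stat2 at 2.62, 2.82, 1.45 and 2.51. The summed neutrophil markers were highest on LPS 3, at 11.17, where Parp9 and Parp12 were lowest. The single markers were split. S100a8 (10.61) and Retnlg (7.97) were highest on LPS 3, S100a9 on LPS 4 (8.73) and Csf3r on LPS 2 (6.96). The part of neutrophils in the differences among LPS arrays was not tested. Without LPS 3 the changes of Parp9 and Parp12 were 3.32 and 2.08.

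**Figure D3:**
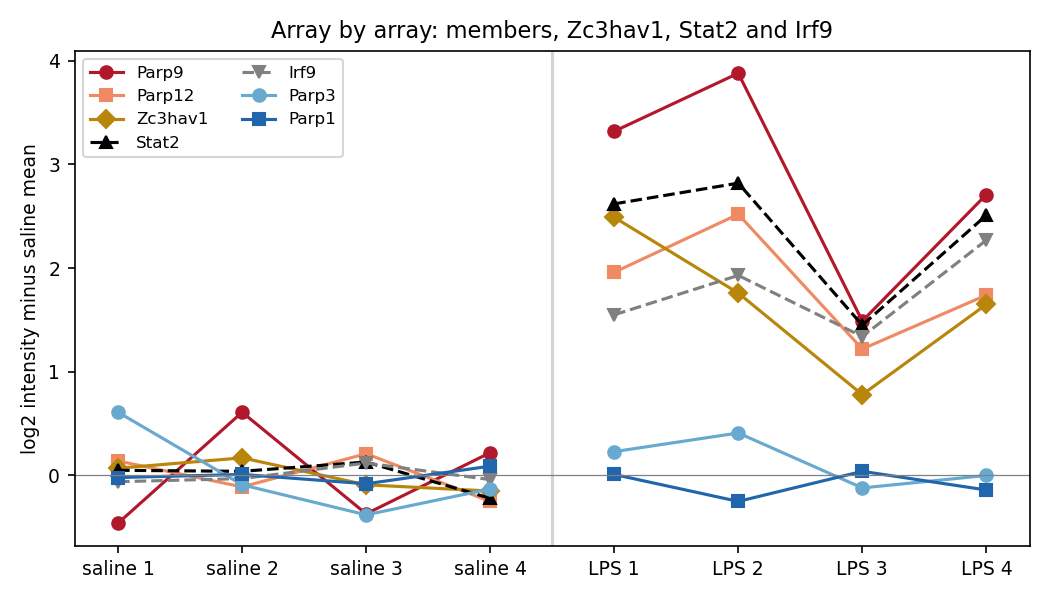
Log2 intensity minus the saline mean of each gene (y axis) on each array (x axis) for the 4 tested members, Zc3hav1, Stat2 and Irf9. Lines only join the points of a gene. The 5 genes that rose are lowest among the LPS arrays on LPS 3, and Parp1 and Parp3 stay within 0.61 of 0 on all 8 arrays.

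The genes whose profiles over the 8 arrays were most like each member's were ranked by the root mean square difference in log2 value after centring on the saline mean. For Parp9 they were Sbno2 (0.355), Slc10a6 (0.416) and Batf2 (0.439), with changes of 2.80, 2.90 and 2.93. For Parp12 they were Ebi3 (0.232), Rcl1 (0.242) and Snx10 (0.247), with changes of 1.75, 1.81 and 1.99. Parp3 was most like Gpn1, Qk and Celf2 (0.128 to 0.139) and Parp1 most like Gapdh, Mad1l1 and Slc25a5 (0.0463 to 0.0545), none of which was called. Gapdh was near the top of the scale on every array, with means of 15.87 and 15.98. These rankings describe 8 arrays that all genes share.

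Parp14, Dtx3l and Parp9 follow each other on chromosome 16 in the RefSeq gene order of GRCm38.p6, and the annotated spans of Dtx3l and Parp9 overlap. Counting 5 protein-coding genes on either side of each member gave 50 distinct neighbours outside the members, of which 26 were tested. Of these 1 rose and 2 fell, with a median of -0.04, while 9.74% of all tested genes rose and 9.75% fell. Around Parp9, 0 of 6 tested neighbours were called in limma, and 0 passed an unadjusted p under 0.05. The nearest tested gene beyond Parp9, Kpna1, which encodes a nuclear import receptor, had a change of -0.08 (limma adjusted p = 0.669).

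Near Parp12, the kinase gene Hipk2 rose by 0.55 (limma adjusted p = 0.0498), just past the threshold. Tbxas1, encoding thromboxane synthase, was above background on 4 saline arrays and 0 LPS arrays and was at least 1.18-fold lower with LPS (limma adjusted p = 0.0343). It passed the filter of 4 arrays above background through the saline arrays alone, so its fall adds no weight. Near Parp3, Abhd14b fell by 0.97 (limma adjusted p = 0.00359).

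**Figure D4:**
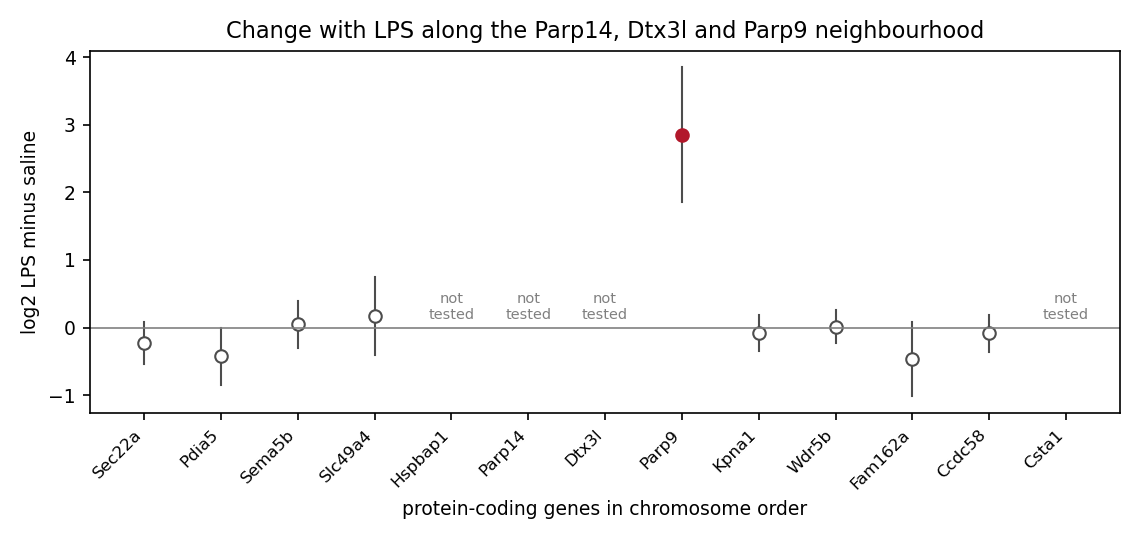
Log2 LPS minus saline with 95% intervals (y axis) for the protein-coding genes around Parp14, Dtx3l and Parp9 in chromosome order (x axis), filled where called. Parp9 stands at 2.85 and the tested neighbours lie between -0.47 and 0.17.

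The arrays differed in scan day, slide series and a mark in the file names reading redip, whose meaning was not stated in any label or header. Parp9 and Parp12 were higher with LPS in every subset that held both groups. Within the first scan day, with 3 LPS and 2 saline arrays, they changed by 2.77 (limma adjusted p = 0.0671) and 1.84 (0.0504). Within the second scan day, with 1 array of each group and no test, they changed by 2.71 and 2.07, and the third held saline 1 alone. The first slide series held LPS arrays 2 to 4 only, and within the second, with 1 LPS and 4 saline arrays, the changes were 3.32 and 1.96. Among arrays with the redip mark (2 and 2) they were 2.88 and 2.31, and among those without it (2 and 2) 2.82 and 1.41. Parp1 and Parp3 gave -0.24 to 0.08 and -0.06 to 0.35 in the same subsets. Among the other genes named above, Zc3hav1, Stat2, Irf1, Irf7, Irf9, Socs1, Isg15, Ido1, Nadk and Fen1 also lost their calls in the arrays without the mark, where 72 genes were called in all. Nadk and Fen1 lost theirs with the slide series as a block too (adjusted p 0.217 and 0.0853).

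**Figure D5:**
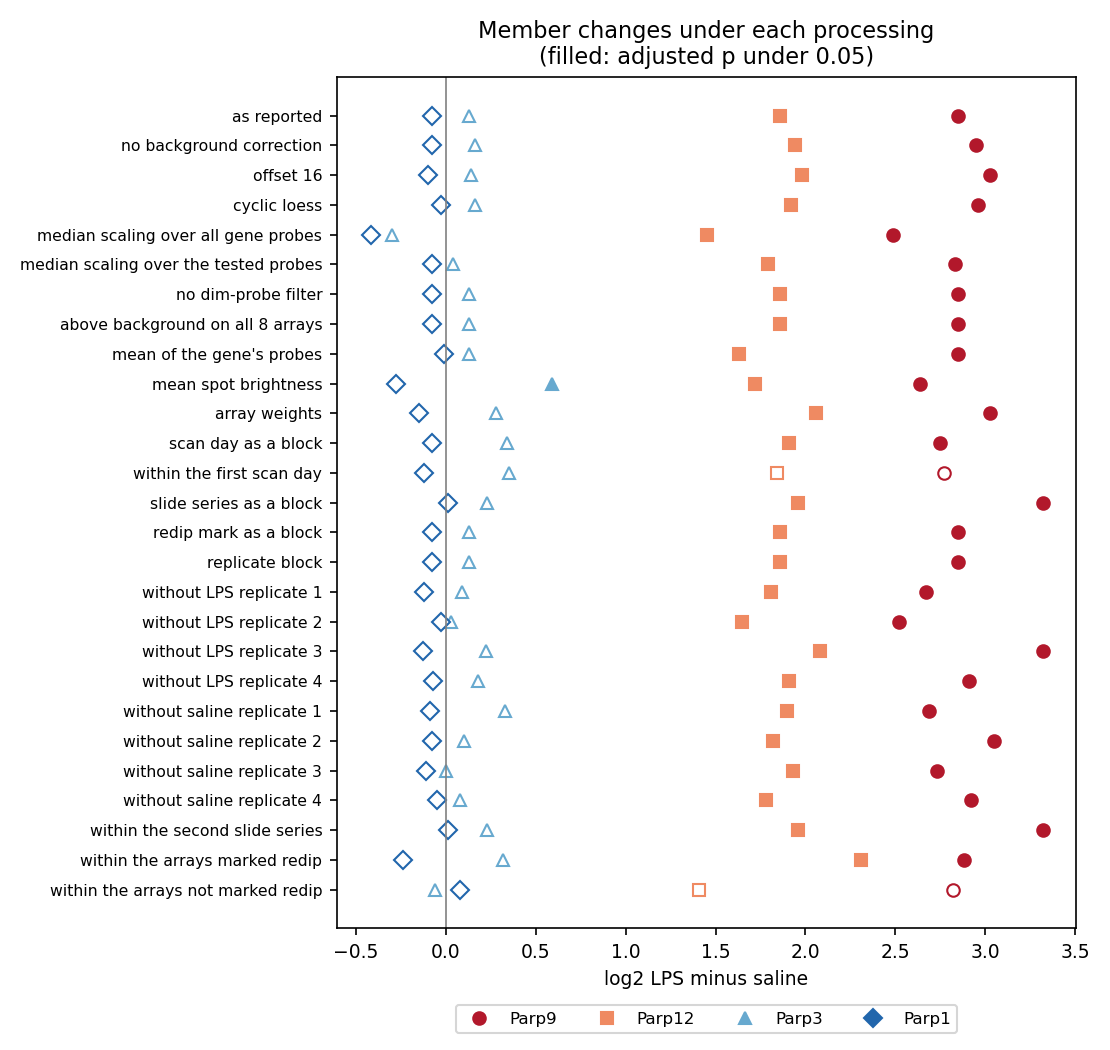
Log2 LPS minus saline (x axis) of the 4 tested members under each processing alternative (y axis), filled where the limma adjusted p was under 0.05. Parp9 and Parp12 stay above 1.4 in all of them and lose the call within the first scan day and within arrays without the redip mark, and Parp3 is called with mean spot brightness alone.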

How the data were processed

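RNA was measured on 8 arrays, from 4 hearts per treatment. The deposited files give each spot's intensity, and that of the area around it, at 635 nm. Per the file headers they were scanned on a GenePix 4000B at a gain of 650 with 5 µm pixels and exported without normalization by GenePix Pro 4.1.1.4. The deposited value table was not used, since 0 of its probe identifiers matched the scanner files. Median spot intensities were corrected with normexp (offset 50), quantile normalized and taken to log2 in limma 3.58.1 and R 4.3.3, with spots marked bad treated as missing. The offset shrinks the changes of dim genes.

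Of 35078 gene probes, 23066 matched 1 symbol by RefSeq accession. Those above background on at least 4 of 8 arrays were kept, and the brightest stood for each gene, giving 8871 named genes and 3230 unnamed probes over which p-values were adjusted (threshold 0.05). The script was tested on simulated data. The number of arrays limits the precision.

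Members, lists and alternatives were chosen with earlier results of these data known. The lists were other PARP family genes, ADP-ribose removal, Deltex ligases, interferon signalling, NAD metabolism, strand break repair, partners named in earlier work and cell type markers. Named were all members, in each list the 2 largest rises and the 2 largest falls past the threshold (with none, the smallest p), Stat2, Irf9, Irf1, Irf7, Zc3hav1, Tiparp, Parg, Nampt, the 3 most similar genes per member and called neighbours. One gene of the interferon and partner lists is not reported here and is left out of their counts. Further genes named beside counts were chosen after their values were seen. Promoter sequences came from RefSeq on GRCm38.p6. Same-numbered LPS and saline arrays deviated from their group means with correlations of 0.08, -0.14, 0.09 and -0.08. Those of differently numbered arrays ran from -0.16 to 0.17. With 4 arrays per group this cannot show whether the numbers pair the mice, and the main fit did not use them.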

Additional observations from a re-analysis of the deposited data

Results flagged for a closer look

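In 70 groups of 4 arrays (35 named genes in each treatment), 4 had an array far from the other 3, where the gap to the nearest array exceeded 0.829 of the group's whole range. Chance alone gives about 1 such group in 20. For Ido1, LPS 3 stood at 7.64 against 9.73 to 9.97 on the other LPS arrays (share of the range 0.9). For Rcl1, whose profile was among the most like that of Parp12, LPS 3 stood at 9.24 against 10.10 to 10.17 (0.919). For Irf7, saline 1 stood at 10.57 against 11.50 to 11.64 (0.869). For Gapdh, saline 3 stood at 15.94 against at least 15.99 on the others (0.896), a gap of 0.05 near the top of the scale. No member had such an array in either treatment.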

How the results depend on the processing

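The rises of Parp9 and Parp12 kept their direction in every alternative run. They missed the threshold within the first scan day (Parp9 2.77, limma adjusted p = 0.0671; Parp12 1.84, adjusted p = 0.0504), where 445 of all genes and 0 members were called, and within the arrays not marked redip (2.82, adjusted p = 0.112; 1.41, adjusted p = 0.13), where 72 genes and 0 members were called. Both subsets hold fewer arrays. The arrays marked redip, like those not marked, held 2 LPS and 2 saline arrays, and 1287 genes were called there. In them Parp9 (2.88, limma adjusted p = 0.00594) and Parp12 (2.31, limma adjusted p = 0.0037) kept their calls. The part of array number in the lost calls was not tested. With each array left out in turn, Parp9 ran from 2.52 to 3.32, Parp12 from 1.65 to 2.08 and the count of called genes from 1107 (without LPS 2) to 2004 (without LPS 3), against 1729. An offset of 16 gave 3.03 for Parp9 and 1.98 for Parp12.

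Parp3 was called with mean spot brightness (0.59), and turned to -0.30 under median scaling over all gene probes and to -0.06 in the arrays not marked redip. That scaling moved the median of all genes from -0.05 to -0.35 and the share of calls that were higher from 50% to 23.5%. Parp1 turned to 0.01 with the slide series as a block, 0.01 within the second slide series and 0.08 in the arrays not marked redip. Blocking on the slide series left 758 called genes, and the second series alone 827. The cause of these shifts was not tested.

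Uncalled named genes also turned. Under cyclic loess Gapdh was at 0.24 and Slc25a5 at 0.01. Under median scaling over all gene probes Parg was at -0.12, Nampt at -0.13, Gpn1 at -0.22, Qk at -0.23 and Celf2 at -0.32, and over the tested probes Gapdh was at 0.23 and Mad1l1 at 0.11. With mean spot brightness Gpn1 was at -0.08 and Qk at -0.06. With the slide series as a block, and within its second series, Gapdh was at 0.02 and Slc25a5 at 0.03. Parg was at -0.01 in the arrays marked redip, and in those not marked Mad1l1 was at 0.13, Slc25a5 at 0.08, Gpn1 at -0.12 and Qk at -0.03. With each array left out, Gpn1 ran from -0.09 to 0.20 and Celf2 from -0.01 to 0.23.

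With the replicate number as a block, 1524 genes were called. Parp9 (2.85, limma adjusted p = 0.00103) and Parp12 (1.86, limma adjusted p = 0.00269) kept their calls. Whether the numbers pair the mice is not known. The 3 within-batch subsets of slide series and redip mark were chosen after seeing the data. The number of arrays and signals near background limit what can be seen for Parp1, Parp3 and the dim second Parp9 probe.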
